A study of Aspergillus niger with 24 samples.

Results

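The comparison set a lipase-expressing strain of Aspergillus niger against its wild type on the last of 4 labelled sampling days. It used 6 of the 24 libraries of the series, chosen by their library names. They were 3 libraries of the strain that expressed the lipase TLL at day 4 (TLL day 4) and 3 libraries of the wild type at day 4 (WT day 4). Both strains carried the strain name CICC2629 and grew on plates of potato dextrose agar kept at 28 °C, and RNA came from hyphae. The labels give neither the promoter that drove the lipase nor the number of transformants, and no library age beyond the day is given. The series names collection at 0, 24, 48 and 72 hours without linking an hour to a day number, so the libraries are called by day. No source states that replicates were separate cultures, so the p-values reflect the spread among libraries, which may be technical.

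Aspergillus niger is a mould that feeds by secreting enzymes into its surroundings and taking up the products, and it is used in industry as a host for secreted proteins. Lipases cleave the ester bonds of fats and oils. A foreign secreted protein passes through the endoplasmic reticulum, where it is folded, before it leaves the hypha. On an agar plate, growth, use of the sugars and spore formation follow one another, so a fungal transcriptome shifts with the age of a culture as well as with its genotype.

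The deposited table gave 11846 genes in TPM (length-scaled transcript abundance with a fixed library total). Of these, 9558 reached 1 TPM in at least 3 of the 24 libraries and were tested. The other 2288 were left out, and 659 of all genes were at 0 throughout. In 21 tested genes, all 3 libraries of TLL day 4 or of WT day 4, but not of both, reached 1 TPM. No library of another day did so in these genes. TPM keep no read numbers, so library depth is unknown. The files pair no gene ID with a name or product, and 0 of the IDs occurred in a reference table of 14404 Aspergillus niger genes. Genes are therefore given by ID, with no role, and groups of genes are described by abundance, size of change and ID number. The labels could not be checked with the lipase gene, which no ID names, nor with markers of spore formation.

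Replicates lay close together. Pairwise correlations of log2(TPM + 1) across genes were 0.987 to 0.991 among TLL day 4 libraries and 0.985 to 0.990 among WT day 4 libraries, against 0.875 to 0.898 between the strains. The median SD of a gene over replicates was 0.13 on the log2 scale in TLL day 4 and 0.19 in WT day 4. Among groups, TLL day 4 correlated most with TLL day 3 (mean 0.919) and then with WT day 3 (0.910), while WT day 4 correlated most with TLL day 3 (0.971) and far less with WT day 3 (0.876). Whether the WT day 3 and day 4 labels hold was not tested. Hence the day 4 difference between strains is set beside the earlier days at each step.

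At day 4 more than 1 gene in 2 differed between the strains. Of the 9558 genes, 5175 were called, that is, had an adjusted p under 0.05 in limma, a linear model for expression values fitted to all 24 libraries (54.1% of genes). In TLL day 4, 2611 genes were higher (27.3%) and 2564 lower (26.8%). The larger side depended on the scaling, since 2509 genes were higher and 2788 lower after median-of-ratios scaling. Without WT day 4 replicate 2 the counts were 2068 higher and 2343 lower. The libraries of the strains did not overlap in 6509 genes (68.1%), with TLL above in 3293 (34.5%) and below in 3216 (33.6%).

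The called differences varied widely in size, and a minority was very large. The median size among called genes was 0.96 on the log2 scale. A fitted change of at least 2-fold on the log2(TPM + 1) scale was seen in 1234 genes called higher and 1198 called lower. For 4-fold these counts were 280 and 290, for 16-fold 20 and 35, and for 64-fold 3 and 2. A stricter limma test asked whether the change exceeded 2-fold beyond its error. It called 751 genes (7.86%), 319 of them higher (3.34%) and 432 lower (4.52%). Lower genes outnumbered higher genes in this test under each alternative setting that was run, for example 217 higher and 373 lower without WT day 4 replicate 2. Leaving the day 1 libraries out of the fit raised these counts to 544 and 604.

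**Figure D1:**
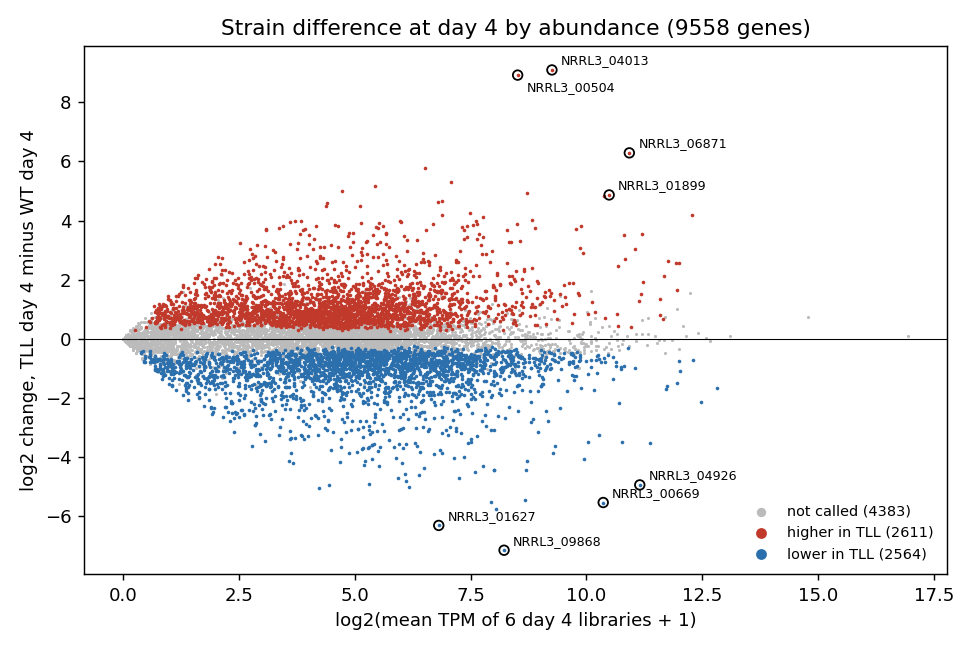
Each point is 1 of the 9558 tested genes; the horizontal axis is abundance over the 6 day 4 libraries, as log2(mean TPM + 1), and the vertical axis is the log2 change, TLL day 4 minus WT day 4. Red points were higher in TLL (2611), blue points lower (2564) and grey points not called; open circles mark the genes named in the text, and the largest changes reach 9.09 above and -7.15 below the zero line.

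The balance between higher and lower genes shifted with abundance. Genes were classed by their mean over the 6 day 4 libraries. Of 3166 genes under 10 TPM, 755 were higher in TLL and 588 lower. Of 4853 genes between 10 and 100 TPM, 1508 were higher and 1361 lower, an order that median-of-ratios scaling turned to 1452 and 1511. Of 1413 genes between 100 and 1000 TPM, 321 were higher (22.7%) and 577 lower (40.8%), against 27.3% and 26.8% over all genes. Their median log2 change was -0.25, against -0.35 after median-of-ratios scaling and -0.11 after quantile normalization. Of 126 genes at 1000 TPM or more, 27 were higher and 38 lower. In the 3 classes other than that of 10 to 100 TPM, the larger side was the same under both scalings.

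The called genes held a large part of the RNA that was measured. Genes called higher in TLL made up 30.7%, 29.8% and 28.3% of the TPM in the TLL libraries, against 10.8%, 9.31% and 11.3% in the WT libraries. Genes called lower made up 17.1%, 17.9% and 18.2% in the TLL libraries and 38.6%, 41.7% and 39.3% in the WT libraries. These genes were chosen by the same values, so the shares only describe how much of the transcript pool the calls cover. The 751 genes beyond 2-fold were a smaller part of it. Those that were higher held 7.79% to 9.21% of TPM in TLL day 4 and 1.00% to 1.18% in WT day 4, and those that were lower held 2.48% to 2.54% in TLL day 4 and 11.9% to 13.1% in WT day 4.

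**Figure D2:**
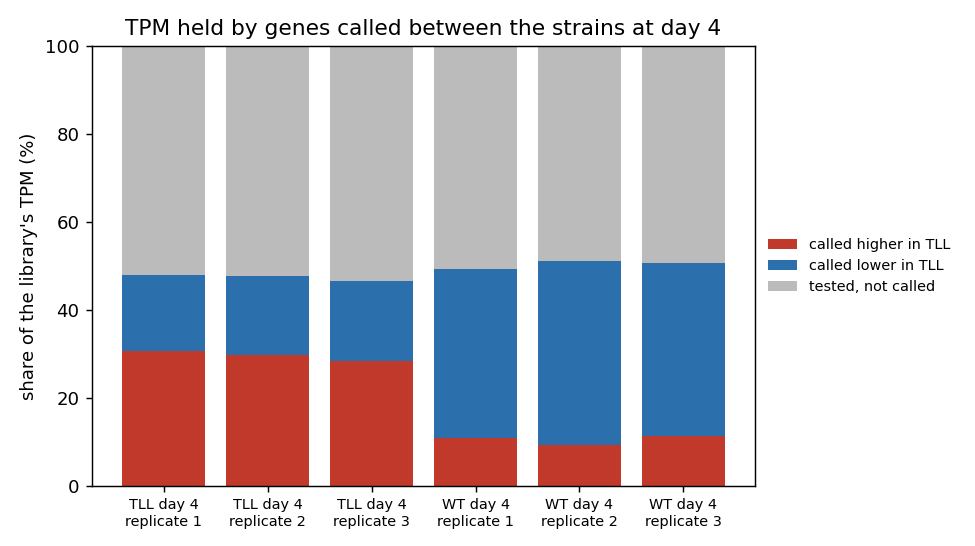
Stacked bars show, for each of the 6 day 4 libraries, the share of its TPM in genes called higher in TLL, called lower in TLL, and tested but not called. The red share lies between 28.3% and 30.7% in the TLL libraries and between 9.31% and 11.3% in the WT libraries; genes under the filter held at most 0.0303% and are not drawn.

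The most abundant transcripts were partly the same in both strains. The gene NRRL3_01765 ranked first in every library, at 128919, 126567 and 130485 TPM in TLL day 4, against 136520, 108694 and 120912 TPM in WT day 4. These ranges overlap, and its log2 change was 0.08 (SE 0.50, limma adjusted p = 0.909). It alone held 12.7% to 13.0% of TPM in the TLL libraries and 10.9% to 13.7% in the WT libraries. NRRL3_01765 and the genes given by ID in the next paragraph were singled out after their values were seen.

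The lists of the top 10 genes by group mean shared 5 genes, none of them called, where 54.1% of all tested genes were called. Of the other 5 in TLL, 4 were called higher, and all of the other 5 in WT were called lower in TLL. Since the same day 4 values set the ranks, the side of these calls follows from the choice of genes, here and for the top 100 lists. Not called does not mean equal. NRRL3_04669, in the TLL list alone, stood at 8673, 6700 and 6120 TPM in TLL, against 2086, 3059 and 2214 TPM in WT. Its log2 change was 1.55 (SE 0.75, limma adjusted p = 0.0873). Among the shared genes, only NRRL3_06779 had libraries that did not overlap (log2 change 0.74, SE 0.47, limma adjusted p = 0.195). NRRL3_01699 had rank 3 in TLL, at 11873, 8841 and 7710 TPM, and rank 310 in WT, at 507, 462 and 567 TPM. Its lowest TLL library lay far above its highest WT library, a log2 change of 4.19 with an SE of 0.37 (adjusted p = 2.27e-08, limma). At day 3 it was called lower in TLL, at -4.92 (adjusted p = 2.55e-09, limma). Of the others called in the TLL list alone, NRRL3_11759 was called higher at day 3, and NRRL3_05725 and NRRL3_01234 were not called. In the WT list alone, NRRL3_00524, NRRL3_04517, NRRL3_09214 and NRRL3_04147 were called higher in TLL at day 3, and NRRL3_05810 was not called. The top 100 lists shared 66 genes, of which 10 were called higher and 14 lower. Among all tested genes, 27.3% were called higher and 26.8% lower. Of the 34 genes in the top 100 of TLL alone, 26 were called higher and 0 lower, and of the 34 in that of WT alone, 29 were called lower and 0 higher. Between 146 and 181 genes held the first 50% of TPM in the TLL libraries, against 191 to 228 in the WT libraries.

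The largest increases took genes that were near silent in WT to the levels of well expressed genes. NRRL3_04013 stood at 1485, 1162 and 1007 TPM in TLL day 4 and at 0.94, 1.79 and 0.98 TPM in WT day 4. The groups were far apart, by 9.09 on the log2 scale (SE 0.59, limma adjusted p = 3.17e-10). On earlier days NRRL3_04013 averaged at most 57.2 ± 1.52 TPM (SD, n = 3), a level seen in WT day 3. NRRL3_00504 stood at 874, 730 and 582 TPM in TLL day 4 and at 0.57, 0.32 and 0.59 TPM in WT day 4, a difference of 8.92 (SE 0.45, limma adjusted p = 8.4e-12). Its next highest group was again WT day 3, at 17.3 ± 3.48 TPM (SD, n = 3), so both genes were expressed in TLL day 4 at a level that no other group approached.

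The log2 changes of these genes depended on the pseudocount, as the WT values lie near or below 1 TPM. NRRL3_04013 changed by 9.87 with a pseudocount of 0.1 TPM and by 7.60 with 5 TPM. NRRL3_00504 changed by 10.28 and 7.04 with the same pseudocounts.

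The largest decreases left genes that WT expressed strongly at a few TPM. NRRL3_09868 stood at 2.48, 3.97 and 2.95 TPM in TLL day 4, against 507, 760 and 507 TPM in WT day 4, which is -7.15 on the log2 scale with an SE of 0.24 (adjusted p = 5.26e-14, limma). It was nearly absent on day 1, at 0.167 ± 0.289 TPM in TLL and 0.323 ± 0.560 TPM in WT. At day 2 it averaged 155 ± 8.95 TPM in TLL, against 189 ± 12.7 TPM in WT, and at day 3 it averaged 44.0 ± 4.13 TPM in TLL, against 6.36 ± 1.74 TPM in WT. WT day 4 was thus its highest group, while in TLL its level was lower on each day after day 2.

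NRRL3_01627 stood at 1.72, 2.08 and 1.42 TPM in TLL day 4, against 282, 168 and 212 TPM in WT day 4, which is -6.31 on the log2 scale with an SE of 0.91 (adjusted p = 1.09e-05, limma). Its SE was the largest of the genes named here for day 4. At day 3 the gene averaged 77.0 ± 16.9 TPM in TLL, against 12.5 ± 2.30 TPM in WT, and was called higher in TLL (limma adjusted p = 0.0286). At day 2 it averaged 39.9 ± 5.32 TPM in TLL, against 9.21 ± 2.64 TPM in WT, and was not called (limma adjusted p = 0.161). WT day 1 replicates spread widely, at 5.26, 194 and 185 TPM, and they enter the same fit. With pseudocounts of 0.1 and 5 TPM its change was -6.89 and -5.04, and that of NRRL3_09868 was -7.51 and -6.17.

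Among genes with a mean of at least 1000 TPM at day 4, the largest differences were smaller than these on the log2 scale. NRRL3_06871 stood at 3942, 3881 and 3697 TPM in TLL day 4 and at 45.8, 63.3 and 38.5 TPM in WT day 4, which is 6.29 on the log2 scale with an SE of 0.49 (adjusted p = 3.73e-09, limma). Its highest mean in any other group was 301 ± 101 TPM (SD, n = 3), in TLL day 3. NRRL3_01899 stood at 3014, 2853 and 2468 TPM in TLL and at 114, 68.2 and 107 TPM in WT, which is 4.86 on the log2 scale with an SE of 0.36 (adjusted p = 1.66e-09, limma). In contrast to NRRL3_06871, its second highest group was WT day 3, at 1206 ± 75.8 TPM (SD, n = 3).

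NRRL3_00669 stood at 48.7, 55.5 and 57.4 TPM in TLL day 4, against 3156, 2134 and 2439 TPM in WT day 4, which is -5.54 on the log2 scale with an SE of 0.43 (adjusted p = 3.24e-09, limma). NRRL3_04926 stood at 159, 135 and 130 TPM in TLL, against 4395, 5170 and 3655 TPM in WT, which is -4.94 on the log2 scale with an SE of 0.60 (adjusted p = 1.44e-06, limma). Both were also abundant in both strains at day 2, where NRRL3_04926 averaged 8162 ± 2216 TPM in TLL, against 11017 ± 1519 TPM in WT (SD, n = 3 libraries a strain). At day 3 NRRL3_00669 averaged 4245 ± 359 TPM in TLL, against 35.8 ± 4.37 TPM in WT. NRRL3_04926 then averaged 6355 ± 321 TPM in TLL, against 452.5 ± 123.7 TPM in WT. Both were called higher in TLL at day 3 and lower at day 1 (limma adjusted p at day 1 0.00355 and 0.0475). The libraries of the strains at day 4 were separate for each of these 8 genes, which the rule for naming them required.

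**Figure D3:**
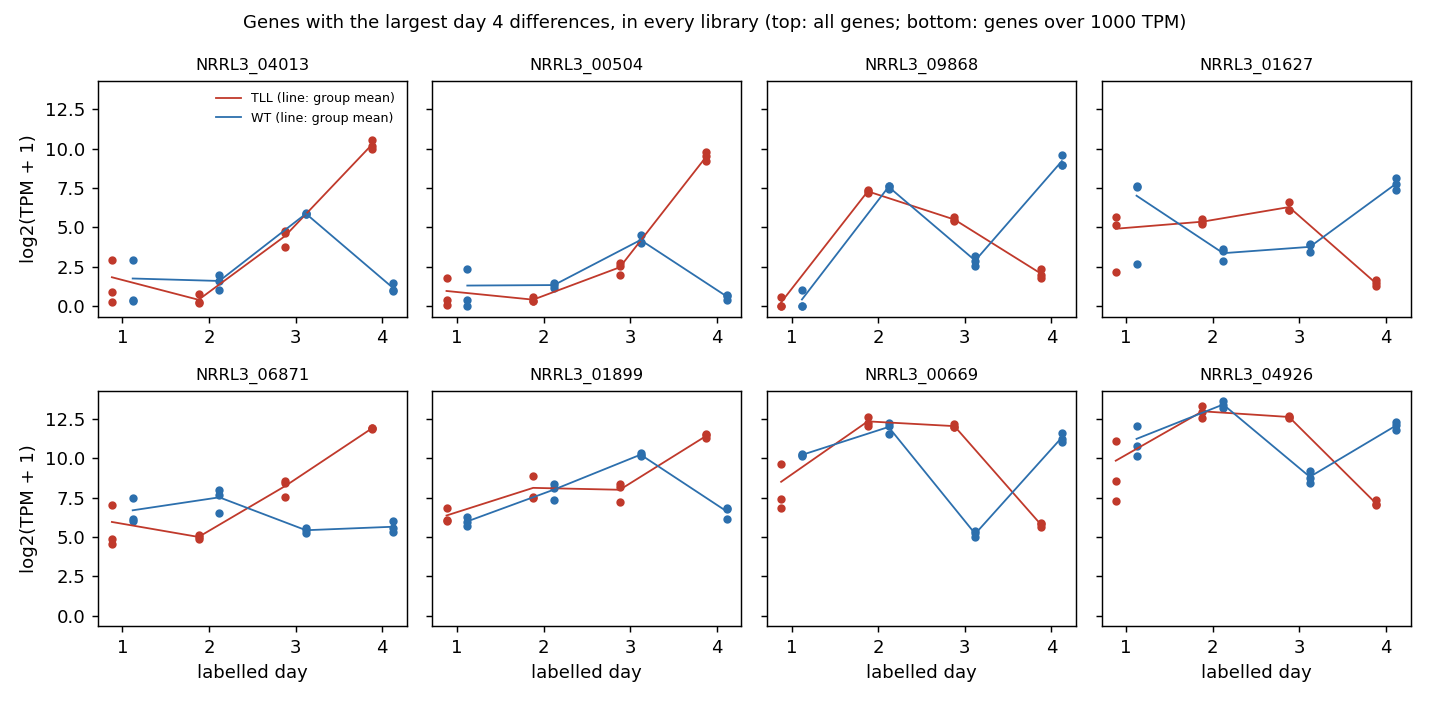
The 8 panels show log2(TPM + 1) in every library against the labelled day for the genes with the largest day 4 differences over all genes (top) and among genes of at least 1000 TPM (bottom). Points are libraries, red for TLL and blue for WT, and lines join the log2 of the group means plus 1; NRRL3_04013 reaches 1007 to 1485 TPM in TLL day 4 and no more than 58.5 TPM in any other group.

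A few genes were switched between under 1 TPM in each library of a strain and at least 10 TPM in each library of the other. In TLL 12 such genes were on, and in WT 8. With 5 TPM in place of 10 TPM the counts were 22 and 20. In the earlier groups the 12 genes on in TLL were mostly low: their group means reached 10 TPM in 4 genes in WT day 3, in 1 gene in TLL day 1 and in 0 genes in the other 4 groups. The 8 genes on in WT were more widely expressed before. Their means reached 10 TPM in 6 genes in TLL day 2, in 3 genes in each of WT day 2, WT day 3 and TLL day 3, and in 1 gene in each day 1 group. At day 3, in separate libraries but the same fit, 10 of the 12 genes on in TLL were called lower in TLL and 1 higher. Of the 8 genes on in WT, 5 were called higher and 2 lower. Of all tested genes, 14.9% were lower and 32.2% higher at day 3.

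The genes beyond 2-fold were followed through the earlier days, whose libraries had no part in the day 4 means. These libraries did enter the same fit, so a gene has the same SE on every day. Genes called at day 4 may therefore be called more readily on another day, on either side, than genes in general. The 319 higher genes had a median over genes of 61.4 TPM in TLL day 4, against 8.48 TPM in WT day 4. At day 3 it was 13.2 TPM in TLL and 33.1 TPM in WT, at day 2 it was 12.0 TPM in TLL and 12.1 TPM in WT, and at day 1 it was 13.6 TPM in TLL and 11.8 TPM in WT. TLL day 4 was the highest of the 8 groups for 273 of the 319 genes, and WT day 3 for 38.

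The strain difference of these genes at day 3 lay mostly on the opposite side. Of the 319, 193 were called lower in TLL at day 3 (60.5%, against 14.9% of all tested genes) and 13 higher (4.08%, against 32.2%). At day 2, 5 were called higher (1.57%, against 8.22%) and 16 lower (5.02%, against 1.49%). At day 1, 4 were called higher (1.25%, against 1.76%) and 6 lower (1.88%, against 5.56%). Few of the 319 were thus called higher on an earlier day. At day 1 this was near the share of all genes, and the gap to all genes was widest at day 3.

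The 432 lower genes had a median of 12.6 TPM in TLL day 4, against 76.0 TPM in WT day 4. At day 3 it was 52.6 TPM in TLL and 21.9 TPM in WT, at day 2 it was 75.4 TPM in TLL and 59.7 TPM in WT, and at day 1 it was 16.5 TPM in TLL and 28.0 TPM in WT. For these genes WT day 4 was therefore close to the day 2 levels of both strains. TLL day 4 was the lowest of the 8 groups for 203 of the 432 genes and TLL day 1 for 138, and the highest group was TLL day 2 for 167 genes and WT day 4 for 128.

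At day 3, 317 of the 432 were called higher in TLL (73.4%, against 32.2% of all genes) and 30 lower (6.94%, against 14.9%). At day 2, 97 were called higher (22.5%, against 8.22%) and 8 lower (1.85%, against 1.49%). At day 1 the side was that of day 4, with 111 called lower (25.7%, against 5.56%) and 0 higher (against 1.76%). Day 1 replicates correlated at as little as 0.920 in TLL and 0.923 in WT, so the day 1 calls rest on libraries that spread more than those of day 4.

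**Figure D4:**
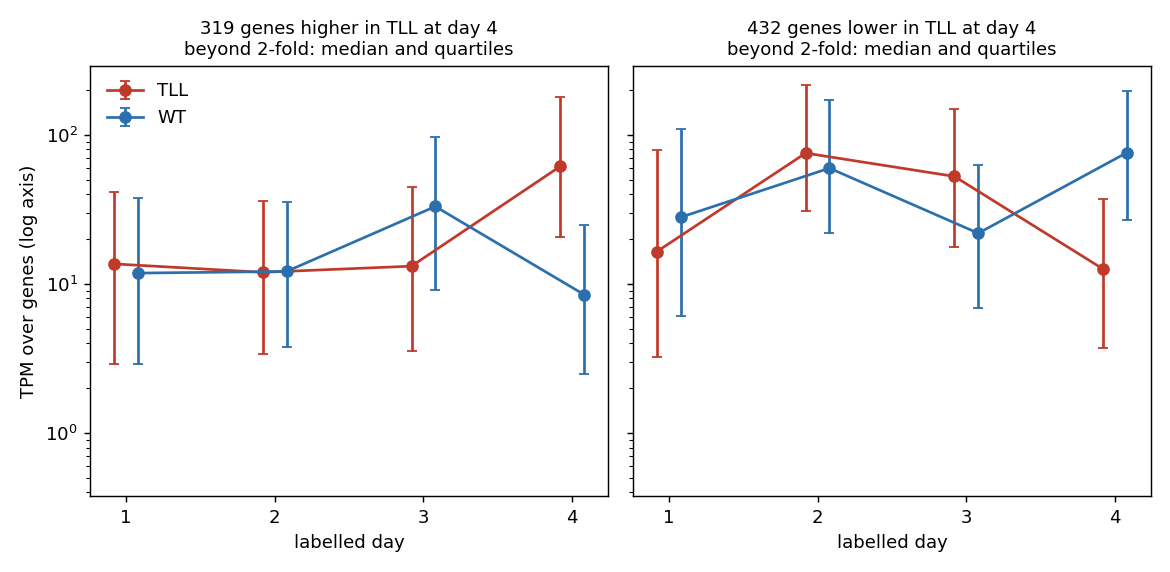
Medians with quartiles over genes of the group mean TPM (log axis) are drawn against the labelled day, for the 319 genes higher (left) and the 432 genes lower (right) in TLL day 4 beyond 2-fold; red is TLL and blue is WT. The day 4 separation was fixed by the choice of genes; at day 3 the strains lie the other way round, at 13.2 TPM in TLL and 33.1 TPM in WT on the left and at 52.6 TPM in TLL and 21.9 TPM in WT on the right.

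Over all 9558 genes the day 4 difference was compared with those of the earlier days, which share no library with it. The calls of all days share the SE of each gene, as they come from the same fit. Shares over all genes are therefore only a rough guide to the overlap of the lists. Of the genes called at day 4, 62 were also called higher and 296 also called lower at day 1, which is 36.9% and 55.7% of the day 1 lists but 2.37% and 11.5% of the day 4 lists. Of all tested genes, 27.3% and 26.8% were on the day 4 lists, and 1.76% and 5.56% on the day 1 lists. At day 2, 124 were also higher (15.8% of the day 2 list and 4.75% of the day 4 list) and 25 also lower (17.6% and 0.975%), while 358 genes called lower at day 4 had been called higher at day 2. The shares of the day 2 lists thus lay below those of all genes on the day 4 lists. At day 3, 298 were also higher (9.68% of the day 3 list and 11.4% of the day 4 list) and 175 also lower (12.3% and 6.83%). On opposite sides were 670 genes called higher at day 4 but lower at day 3, and 1554 called lower at day 4 but higher at day 3. As a description across genes, the day 4 differences correlated with those of day 1 at r = 0.21 and rho = 0.20, with those of day 2 at r = -0.12 and rho = -0.05, and with those of day 3 at r = -0.44 and rho = -0.45 (9558 genes).

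Whether the strain difference itself had changed was tested by subtracting the earlier difference from that of day 4. Against day 3, 5591 genes passed (58.5%), 2395 on the higher side (25.1%) and 3196 on the lower side (33.4%). The sides were nearly even after median-of-ratios scaling, at 2786 and 2902, and after quantile normalization, at 2758 and 2918. Of the 5591, 2114 passed beyond 2-fold (22.1%). Against day 2, 3932 passed (41.1%), of which 1365 (14.3%) lay on the higher and 2567 (26.9%) on the lower side. Quantile normalization gave 2024 and 2124 for the same test, so the excess on the lower side depended on the scaling. Against day 1, 3471 passed (36.3%), with 1745 on the higher side (18.3%) and 1726 on the lower side (18.1%), or 1722 and 2001 after median-of-ratios scaling. The scaling also shifted the median over all genes. Against day 3 the median difference was -0.14, or -0.02 after median-of-ratios scaling, and against day 2 it was -0.15, or 0.01 after quantile normalization.

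The genes with the largest shifts were partly those named above. NRRL3_07276 stood at 8.27, 5.85 and 13.0 TPM in TLL day 4, against 549, 514 and 487 TPM in WT day 4. At day 3 it stood at 429, 331 and 323 TPM in TLL and at 1, 0 and 1.66 TPM in WT. Its difference between strains shifted by -13.43 against day 3 (SE 0.40, limma adjusted p = 2.9e-15) and by -7.65 against day 2 (SE 0.40, limma adjusted p = 3.3e-11). The groups thus exchanged places between these days without an overlap of libraries.

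NRRL3_04013 shifted by 10.58 against day 3 (SE 0.83), 10.26 against day 2 (SE 0.83) and 8.94 against day 1 (SE 0.83). NRRL3_00504 shifted by 10.67, 9.85 and 9.07 (SE 0.63 each) in the same order. Both passed each of these 3 tests, with limma adjusted p-values of at most 2.49e-07.

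Genes with consecutive ID numbers tended to change together. The IDs number 1 to 11846 without a gap. Locus numbers of a fungal annotation are usually assigned along the contigs, but the position of these genes was not analysed here. The day 4 log2 changes of genes with adjacent numbers correlated at r = 0.21 (8513 pairs). At a distance of 2 it was 0.07 (8309 pairs), at 3 it was 0.03 (8220 pairs) and at 100 it was -0.02 (7730 pairs). Of adjacent pairs in which both genes were called, 60.6% lay on the same side, against 54.0% at a distance of 2 and 47.1% at a distance of 100.

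Runs of 3 or more consecutive IDs, all called on the same side, numbered 184 higher and 153 lower. They took in 25.0% of the genes called higher and 20.9% of those called lower, where 27.3% of all tested genes were called higher and 26.8% lower. With so many genes called, such runs also arise among unlinked neighbours. How many would do so was not tested. Under median-of-ratios scaling the runs numbered 170 higher and 183 lower. When only called changes of at least 2-fold were counted, 33 higher and 43 lower runs were found.

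The longest run with all genes higher was that of 10 IDs, NRRL3_11759 to NRRL3_11768. Its log2 changes ran from 0.56 to 3.73 with a median of 1.08. The run included the abundant gene NRRL3_11759, singled out after its values were seen, at 6399, 5836 and 5781 TPM in TLL day 4, against 965, 1063 and 896 TPM in WT day 4. The 3 libraries of each strain were tight and far apart, a log2 change of 2.62 with an SE of 0.38 (adjusted p = 9.58e-06, limma). That SE rests on the spread within all 8 groups of the fit, not on the day 4 libraries alone. Summed over the run, the group means came to 7825 TPM in TLL day 4, against 1170 TPM in WT day 4. NRRL3_11759 gave 6006 TPM of this in TLL and 975 TPM in WT. NRRL3_11761, also singled out after its values were seen, gave 1629 TPM in TLL and 122 TPM in WT. The sums at day 4 thus mainly reflect these genes. At day 3 the sums were 5723 TPM in TLL and 181 TPM in WT, and 7 of the 10 genes were called higher and 1 lower, against 32.2% and 14.9% of all genes. At day 2, 0 were called higher and 5 lower, against 8.22% and 1.49% of all genes.

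The longest run with all genes lower was that of 8 IDs, NRRL3_08815 to NRRL3_08822, with log2 changes from -4.03 to -0.70 and a median of -2.07. The group means summed to 137 TPM in TLL day 4, against 920 TPM in WT day 4. On earlier days the strains were close. The sums were 802 TPM in TLL and 688 TPM in WT at day 3, 888 TPM in TLL and 793 TPM in WT at day 2, and 165 TPM in TLL and 206 TPM in WT at day 1. At day 3, 3 of the 8 genes were called higher and 0 lower, against 32.2% and 14.9% of all genes, with log2 changes of at most 0.57, and at day 2 none passed the test in either direction. At day 1, 1 of the 8 was called lower and 0 higher, against 5.56% and 1.76% of all genes, and the lowest log2 change was -0.82.

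**Figure D5:**
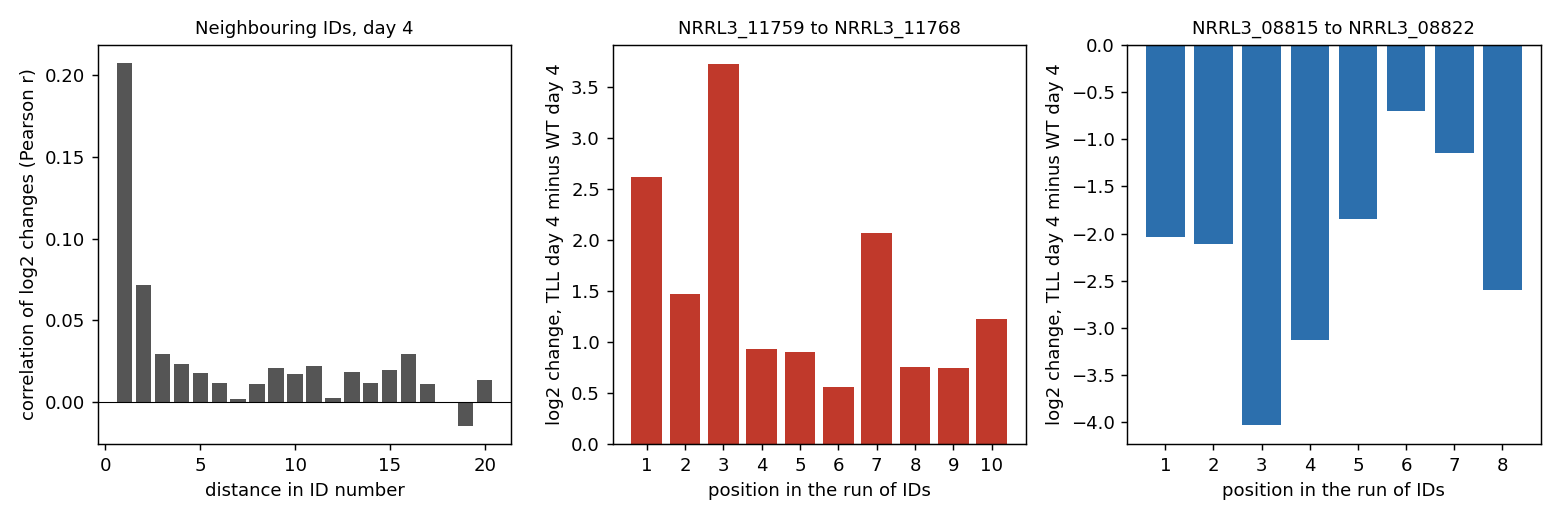
The left panel shows the Pearson correlation of the day 4 log2 changes between genes whose ID numbers lie 1 to 20 apart; it is 0.21 at a distance of 1 and 0.07 at 2. The other panels show the log2 change, TLL day 4 minus WT day 4, of each gene in the longest run of consecutive IDs called higher (middle, 10 genes) and called lower (right, 8 genes).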

How the data were processed

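RNA sequencing of hyphae gave 24 libraries, 3 in each of 8 groups. The deposited table holds TPM values made by the authors, and 0 of its columns belonged to no sample. HISAT2, StringTie and Cufflinks are named, without versions or roles, per the submitters' processing notes, while RSEM appears in the table's name. For build, annotation and strandedness, the answer is not given in the sources used here.

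Analysis was on log2(TPM + 1), on which changes of low genes are understated. Genes under 1 TPM in all but 2 or fewer of the 24 libraries were dropped. limma 3.58.1 (R 4.3.3) fitted a mean for each of 8 groups to all 24 libraries (16 residual degrees of freedom), with moderated variances and a mean-variance trend. Tests were two-sided, with Benjamini-Hochberg adjustment over 9558 genes. The threshold test for changes beyond 2-fold was limma's treat. The model was run on simulated data before use, with few genes changed and the same spread of a gene in every group. Those settings differ from these data, so that run is no support for the calls reported here. Figures were drawn with matplotlib 3.10.9 (Python 3.11.15).

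Genes were named by a rule: called, at least 10 TPM in the higher day 4 group, no overlap of day 4 libraries, not at 0 throughout the lower group, and the 2 largest changes each way for each contrast and for genes of at least 1000 TPM. The 14 lists of gene symbols prepared for this work matched 0 IDs and were not tested. Members, rules and lists were chosen with earlier results of these data known.

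Alternatives were pseudocounts of 0.1 and 5 TPM, no filter, a stricter filter (5 TPM), quantile normalization, scaling by median of ratios, weights per library, a replicate block, no trend, fits on fewer days, and leaving out each day 4 library. The fit without WT day 3 was added after seeing the data.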

Additional observations from a re-analysis of the deposited data

Results flagged for a closer look

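The strain difference at day 4 differed from that of an earlier day, by the limma test of the difference itself, in 5591 genes for day 3, 3932 genes for day 2 and 3471 genes for day 1. The genes named by the rule for these tests are given here with the log2 difference between the differences, day 4 minus the earlier day.

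NRRL3_00504 was higher by 10.67 against day 3, 9.85 against day 2 and 9.07 against day 1. NRRL3_04013 was higher by 10.58, 10.26 and 8.94 in the same order. NRRL3_07276 was lower, at -13.43 against day 3 and -7.65 against day 2. NRRL3_00669 was lower at -12.39 against day 3, NRRL3_01627 at -8.34 against day 2 and NRRL3_09868 at -7.02 against day 1.

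NRRL3_10183 was at -6.68 against day 1 (SE 2.54, limma adjusted p = 0.046). It was listed at 0, 61.3 and 0 TPM in TLL day 4 and at 114, 76.4 and 152 TPM in WT day 4. It was also listed at 0 in 5 libraries of other groups, and its call was lost without any one of 5 of the 6 day 4 libraries. Without TLL day 4 replicate 1 its difference was -5.68 (limma adjusted p = 0.114).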

How the results depend on the processing

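The day 4 total of 5175 called genes was between 4411 and 4861 without a single day 4 library and between 4735 and 6798 under the other settings run. The total beyond 2-fold, 751 genes, was 590 to 711 without a single library. It was 1312 with library weights and 1148 with day 1 left out of the fit. Library weights raised the genes whose difference changed to 6275 against day 2 and 6197 against day 1, and a fit on days 4 and 1 alone gave 2086 for day 1. Without a single day 4 library these tests gave 5256 to 5402 genes against day 3, 3511 to 3665 against day 2 and 2957 to 3234 against day 1. The cause of these shifts was not tested. By construction, on and off genes numbered 42 with the limit at 5 TPM, and runs of IDs 76 with a 2-fold minimum. Added after seeing the data, the fit without WT day 3 called 5000 genes.

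The labels number replicates 1 to 3 without saying that a number marks a shared culture. Deviations of equally numbered day 4 libraries correlated at 0.0043, -0.061 and -0.012, so they were not treated as pairs. With a replicate block 5175 genes were called, 2612 higher and 2563 lower, and among the genes named only NRRL3_10183 lost its call (limma adjusted p = 0.0576).

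The 8 genes named for day 4 kept their direction and their call under each setting run. NRRL3_10183 also lost its call with a pseudocount of 0.1 TPM, without a filter, with library weights and on days 4 and 1 alone. TPM give no depth, so the precision of low values could not be judged.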

Other observations

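The likeness of genes with adjacent ID numbers was also present in the strain differences of the earlier days. Their correlation across 8513 pairs was 0.20 at day 1, 0.16 at day 2 and 0.29 at day 3, beside 0.21 at day 4. At a distance of 100 in ID number it was 0.0016 at day 1, 0.0041 at day 2, 0.0062 at day 3 and -0.021 at day 4. The 4 days use separate libraries, and genes are not independent replicates.

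Among runs limited to called changes of at least 2-fold, the longest was NRRL3_01415 to NRRL3_01423, singled out after its values were seen. All 9 genes were higher in TLL day 4, by 1.42 to 3.90 on the log2 scale with a median of 1.76.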
